A study of Mus musculus with 6 samples.

Results

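The genes described here are 10 plasma membrane amino acid transporters of the mouse, Slc7a1, Slc7a3, Slc7a5, Slc7a6, Slc7a11, Slc3a2, Slc38a1, Slc38a2, Slc1a4 and Slc1a5. They were taken by gene symbol from a table of 14665 protein-coding genes. All 10 were found there, and all 10 passed the filter on low counts that left 11104 genes for the test. RNA was sequenced from C17.2 cells, an immortalized mouse neural stem cell (NSC) line of WT genotype, in 3 control and 3 hypoxia/reoxygenation (H/R) libraries. The control cells were kept at standard oxygen. The H/R cells spent 12 h in a chamber at 5% oxygen and were then returned to standard oxygen for 48 h, a model of ischemia and reperfusion in a dish, so every value after H/R is a value late in reoxygenation. Both groups grew in the same serum-containing medium with added glutamine. The study compared the groups to learn how NSCs respond to H/R. It used 1 established line. Nothing in the sources ties the 3 libraries of a group to different dishes or passages, and the p-values therefore rest on a spread that may be technical.

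Cells take up amino acids through several families of carriers that divide the work by substrate and by driving force. The Slc7 light chains Slc7a5, Slc7a6 and Slc7a11 are exchangers that reach the cell surface joined by a disulfide bond to one glycoprotein, the heavy chain Slc3a2 (CD98), whereas the cationic amino acid carriers Slc7a1 and Slc7a3 work without it. Slc1a4 and Slc1a5 exchange small neutral amino acids, and Slc38a1 and Slc38a2 import neutral amino acids with sodium. Several of these genes are known targets of ATF4, the transcription factor that is translated when amino acids are short or the endoplasmic reticulum is stressed and eIF2alpha is phosphorylated.

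After H/R, the RNA of Slc3a2, Slc1a4, Slc7a5 and Slc7a1 fell, that of Slc7a6 rose, and Slc7a3, Slc7a11, Slc38a1, Slc38a2 and Slc1a5 did not pass the test. Thus 1 of 10 transporters rose and 4 fell by the criterion used throughout, an adjusted p below 0.05, against 18.8% of all tested genes higher, 19.0% lower and 37.8% changed in either direction (edgeR quasi-likelihood test, two-sided, Benjamini-Hochberg adjustment over all tested genes). The median log2 fold change was -0.33 over the 10 transporters and 0.01 over all tested genes. The 3 control and 3 H/R values did not overlap for 6 of the 10, with 4 lower and 2 higher, where 24.0% and 25.7% of all tested genes had groups that lay apart in those directions. A stricter criterion also asked for a fold change of 2 or more, at an unadjusted p below 0.05. Under it Slc3a2 was the 1 transporter that remained, among 5.37% of all genes lower. By that measure 0 of 10 were higher, against 5.82% of all genes. The calls of these 10 genes by DESeq2 and by the exact test of edgeR numbered 1 higher and 4 lower as well.

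The counts per library summed to 7267809 to 8371882 in controls and 15639751 to 16830389 after H/R. Levels are given in CPM, the counts of a gene per 1000000 counts of its library, after the library total was scaled by TMM factors of 0.920 to 0.938 in controls and 1.07 to 1.08 in H/R. Without those factors the median of all genes moved to a log2 fold change of 0.22 and 74.4% of the called genes were higher, against 49.7% with them. The transporters then numbered 2 higher and 4 lower, against 33.4% and 11.5% of all genes, so levels are read here relative to the bulk of the genes. The label of neural stem cells was set against markers. In the table were 8 neural stem and progenitor markers, Nes and Sox2 among them, and their summed level was 1479 to 1586 CPM in controls and 1717 to 1798 CPM after H/R, most of it Vim (adjusted p = 0.224 in edgeR). Of the 8, Nes and Notch1 rose, by log2 fold changes of 0.76 and 0.81, and Msi2 and Sox9 fell, by -0.58 and -2.19. Prom1, Fabp7 and Pax6 had no row in the table. Fibroblast and mesenchyme markers were abundant in both groups, with 7 of 8 in the table and summed levels of 6192 to 8889 CPM and 5723 to 7121 CPM. Of the 8 neuronal markers 5 were listed, at 73.7 to 81.1 CPM in controls and 34.0 to 37.0 CPM after H/R, nearly all of it Map2. Pdgfra, a marker of oligodendrocyte precursors, rose by a log2 fold change of 1.35, and the summed level of the oligodendrocyte list is not reported here. The 4 of 7 astrocyte markers listed summed to at most 2.31 CPM in any library, with Gfap at 0 counts in the controls, and the 3 of 7 microglia and macrophage markers to at most 1.17 CPM. The part of these differences in the transporter values was not tested, and in RNA from a whole culture fewer cells of a type and less RNA per cell cannot be told apart.

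**Figure D1:**
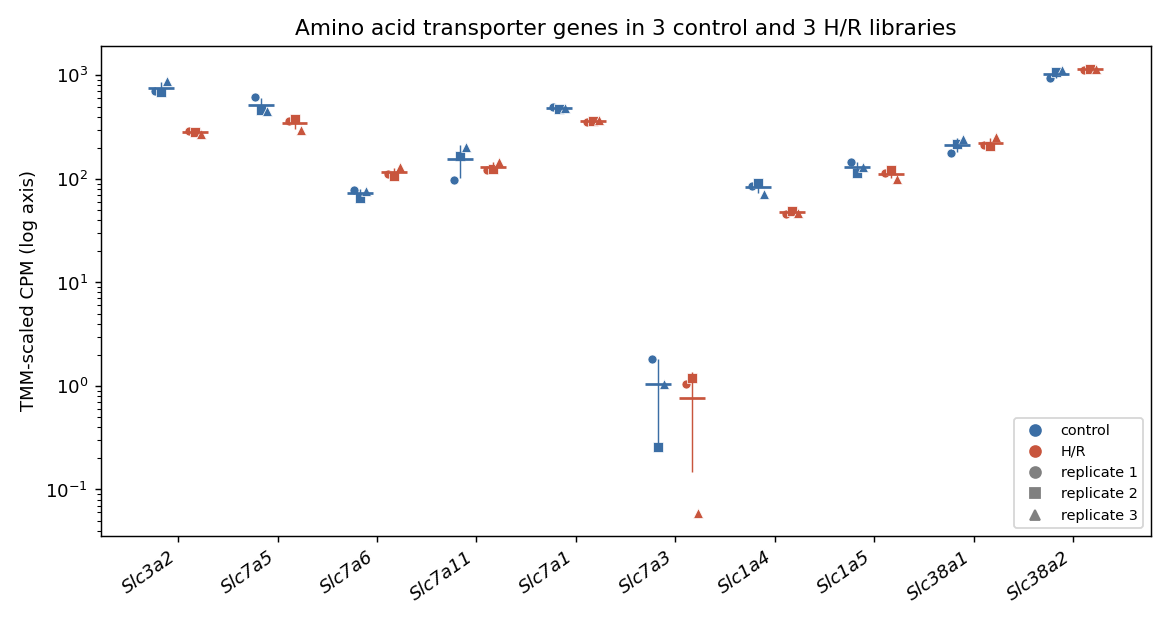
TMM-scaled CPM of the 10 transporter genes on a log axis, with 1 point for each library (blue for control, red for H/R; the marker shape gives the replicate number), a horizontal line for the group mean and a vertical line for 1 SD either side of it (n = 3). Slc3a2 and Slc1a4 show the widest gaps between the groups downward, Slc7a6 lies above its controls in all 3 H/R libraries, and Slc7a3 is near 1 CPM.

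Slc3a2 (ENSMUSG00000010095, mm10 chr19:8706882-8723369, minus strand), the heavy chain, changed more than any other of the 10 transporters. It stood at 713, 698 and 878 CPM in control replicates 1 to 3 and at 290, 284 and 273 CPM in the H/R replicates. The lowest control library held more than 2 times the level of the highest H/R library, and the H/R libraries were nearly alike. The means were 763 ± 100 CPM and 282 ± 8.72 CPM (SD, n = 3), a fall by 2.70-fold with a log2 fold change of -1.43 (SE 0.10, 95% confidence interval -1.65 to -1.22, edgeR adjusted p = 3.24e-07). Over 15 alternative analyses the log2 fold change of Slc3a2 ran from -1.50 to -1.22, and the call held in each.

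Slc7a5 (LAT1, ENSMUSG00000040010, chr8:121881150-121907694, minus strand) exchanges intracellular glutamine for leucine and other large neutral amino acids and is the partner of Slc3a2 that feeds leucine to mTORC1. It was measured at 618, 465 and 457 CPM in the controls and at 362, 379 and 297 CPM after H/R. All 3 H/R libraries were below all 3 controls, with control replicate 1 well above the other two. From 513 ± 90.7 to 346 ± 43.4 CPM the log2 fold change was -0.57 (SE 0.12, interval -0.84 to -0.30, edgeR adjusted p = 0.00294). It was -0.35 without scaling factors, still past the threshold. A gene model on the opposite strand, Gm20388, overlaps Slc7a5 but shares 0 exon bases with it.

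Slc7a6 (y+LAT2, ENSMUSG00000031904, chr8:106168857-106198706, plus strand), which exports arginine in exchange for neutral amino acids and sodium, moved the other way. Its level was 79.0, 66.0 and 76.0 CPM in the controls and 110, 107 and 130 CPM in the H/R libraries, with no overlap. The means were 73.7 ± 6.82 and 116 ± 12.2 CPM, the log2 fold change 0.65 (SE 0.11, interval 0.41 to 0.90, edgeR adjusted p = 5.54e-04). The related light chain Slc7a7 (y+LAT1) was close to the floor, at 2.15 ± 0.725 and 3.01 ± 1.17 CPM.

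Slc7a11 (xCT, ENSMUSG00000027737, chr3:49892526-50443614, minus strand), the cystine and glutamate antiporter that supplies cysteine for glutathione, had the widest spread among controls, relative to its mean, of the transporters above 50 CPM. The control libraries read 96.7, 167 and 205 CPM and the H/R libraries 123, 125 and 146 CPM. The H/R values thus lay inside the range of the controls, whose replicate 1 was the lowest of the 6 libraries. The log2 fold change was -0.25 (SE 0.20, interval -0.68 to 0.18, edgeR adjusted p = 0.350), an interval that leaves room for a fall as well as a small rise. Without control replicate 1 it was -0.50 with an adjusted p of 0.00112, and without control replicate 3 it was -0.01 with an adjusted p of 0.974. The reading of Slc7a11 thus turns on which control library is kept. Over the 6 analyses with 1 library left out the log2 fold change ran from -0.50 to -0.01. The long Slc7a11 locus overlaps 5 other gene models, 2 of them on its own strand, with 0 shared exon bases.

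The heavy chain was then set against its light chains within each library, a ratio that does not depend on the scaling between libraries. CPM were divided by the exon length of each gene (CPM per kb), and the light chains were Slc7a5, Slc7a6, Slc7a7 and Slc7a11. The ratio of Slc3a2 to their sum was 1.06, 1.29 and 1.603 in the controls and 0.624, 0.592 and 0.646 after H/R. Per kb, every control library had more heavy chain RNA than summed light chain RNA and every H/R library had less. On raw counts control replicates 1 and 2 also had less, so the side of 1 depends on the division by length. The difference of the mean log2 ratio was -1.11 on raw counts and -1.07 per kb. Each had an exact two-sided permutation p of 0.1, the smallest that 3 against 3 libraries can give. Against Slc7a5 alone the difference per kb was -0.87, from linear ratios of 1.21 to 2.02 in controls and 0.787 to 0.965 after H/R. Against Slc7a11, the ratio of Slc3a2 was 16.5 to 29.1 in the controls and 7.35 to 9.30 after H/R. The ratio of Slc7a6 to Slc7a5 was 0.104, 0.115 and 0.135 in the controls and 0.247, 0.229 and 0.354 after H/R, a log2 difference of 1.21. The exact p was again 0.1 for each, and the ratios against Slc7a11 and of Slc7a6 to Slc7a5, like those between Slc1 and Slc38 genes below, were chosen after the values had been seen.

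**Figure D2:**
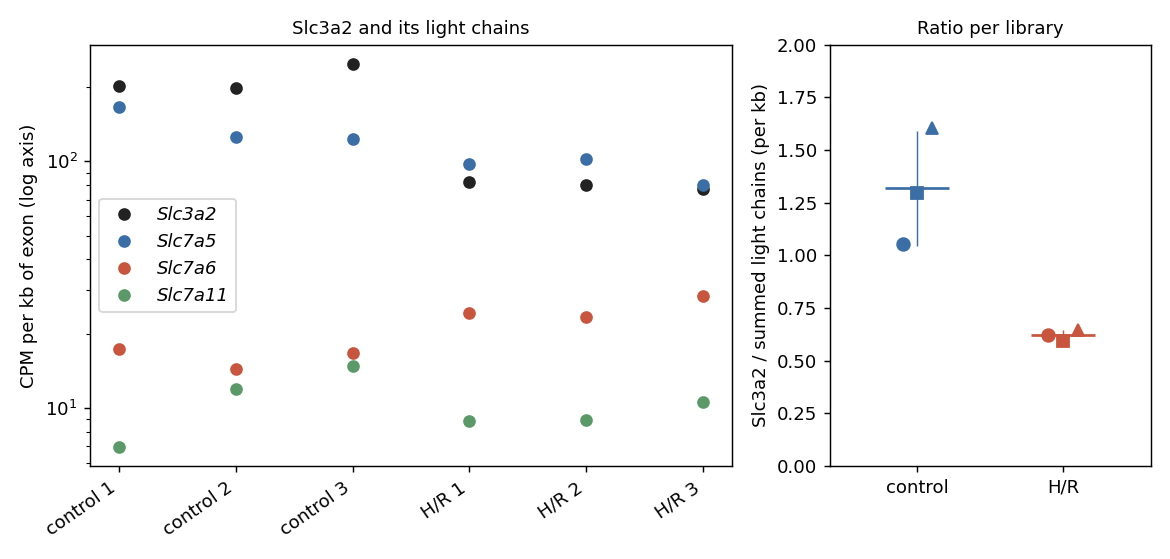
Left, CPM per kb of exon on a log axis for the heavy chain Slc3a2 and the light chains Slc7a5, Slc7a6 and Slc7a11 in each of the 6 libraries. Right, the ratio of Slc3a2 to the summed light chains in each library (points; the marker shape gives the replicate number), with the group mean and SD (n = 3): the controls lie between 1.06 and 1.603 and the H/R libraries between 0.592 and 0.646.

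Of the carriers that need no heavy chain, Slc7a1 (CAT1, ENSMUSG00000041313, chr5:148327410-148399904, minus strand), the main importer of arginine and lysine in most cells, was the more abundant. It read 497, 478 and 483 CPM in the controls and 353, 366 and 374 CPM after H/R, with little spread in either group. The means of 486 ± 10.2 and 364 ± 10.5 CPM differed by a log2 fold change of -0.42 (SE 0.08, interval -0.58 to -0.25, edgeR adjusted p = 8.52e-04). Without scaling factors it was -0.20 with an adjusted p of 0.0444, the weakest of the alternatives for Slc7a1.

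Slc7a3 (CAT3, ENSMUSG00000031297, chrX:101079210-101086020, minus strand), the related cationic carrier, was barely detected. Its counts were 14, 2 and 7 in the controls and 19, 20 and 1 after H/R. At 1.04 ± 0.772 and 0.764 ± 0.615 CPM, a difference was not detectable at this depth (log2 fold change -0.43, SE 0.92, interval -2.42 to 1.55, edgeR adjusted p = 0.743), and the sign turned when control replicate 1 or H/R replicate 3 was left out, to 0.25 and 0.10.

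Slc1a4 (ASCT1, ENSMUSG00000020142, chr11:20302180-20332713, minus strand), an exchanger of alanine, serine, cysteine and threonine, stood second to Slc3a2 in the size of its fall. The controls held 85.2, 91.6 and 71.5 CPM and the H/R libraries 45.9, 49.5 and 47.1 CPM. The groups lay well apart, and the H/R libraries were close together. The means were 82.8 ± 10.2 and 47.5 ± 1.84 CPM, 1.74-fold apart, with a log2 fold change of -0.80 (SE 0.12, interval -1.06 to -0.55, edgeR adjusted p = 1.52e-04).

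Its relative Slc1a5 (ASCT2, ENSMUSG00000001918, chr7:16781340-16798274, plus strand), which brings glutamine into proliferating cells, read 145, 114 and 131 CPM in the controls and 114, 122 and 101 CPM after H/R. Those values overlapped. The log2 fold change was -0.21 (SE 0.11, interval -0.46 to 0.03, edgeR adjusted p = 0.161) and 0.0035 without scaling factors, so no direction is given for Slc1a5. Within a library, the ratio of Slc1a4 to Slc1a5 per exon length was 0.624, 0.853 and 0.581 in the controls and 0.428, 0.430 and 0.497 after H/R. The groups did not overlap, and the log2 difference was -0.59 (exact permutation p = 0.1, the smallest possible).

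The sodium-coupled carriers Slc38a1 and Slc38a2 lie beside each other on chromosome 15. Slc38a2 (SNAT2, ENSMUSG00000022462, chr15:96687392-96699730, minus strand), known for its induction when cells lack amino acids, had the highest CPM of the 10 genes. It stood at 935, 1072 and 1122 CPM in the controls and at 1122, 1165 and 1164 CPM after H/R, where the highest control and the lowest H/R library were almost equal. The log2 fold change was 0.14 (SE 0.08, interval -0.04 to 0.32, edgeR adjusted p = 0.210). It was 0.36 with an adjusted p of 0.00400 without scaling factors, a call that the main analysis did not make.

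Slc38a1 (SNAT1, ENSMUSG00000023169, chr15:96571418-96642913, minus strand) read 180, 218 and 245 CPM in the controls and 212, 207 and 254 CPM after H/R. The groups overlapped almost fully, with a log2 fold change of 0.07 (SE 0.12, interval -0.19 to 0.32, edgeR adjusted p = 0.689). Leaving out control replicate 1 or H/R replicate 3 turned the sign, to -0.045 and -0.029. The ratio of Slc38a2 to Slc38a1 per exon length was 8.93 to 10.1 in the controls and 8.95 to 10.96 after H/R, and did not separate the groups (log2 difference 0.07, exact permutation p = 0.4).

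**Figure D3:**
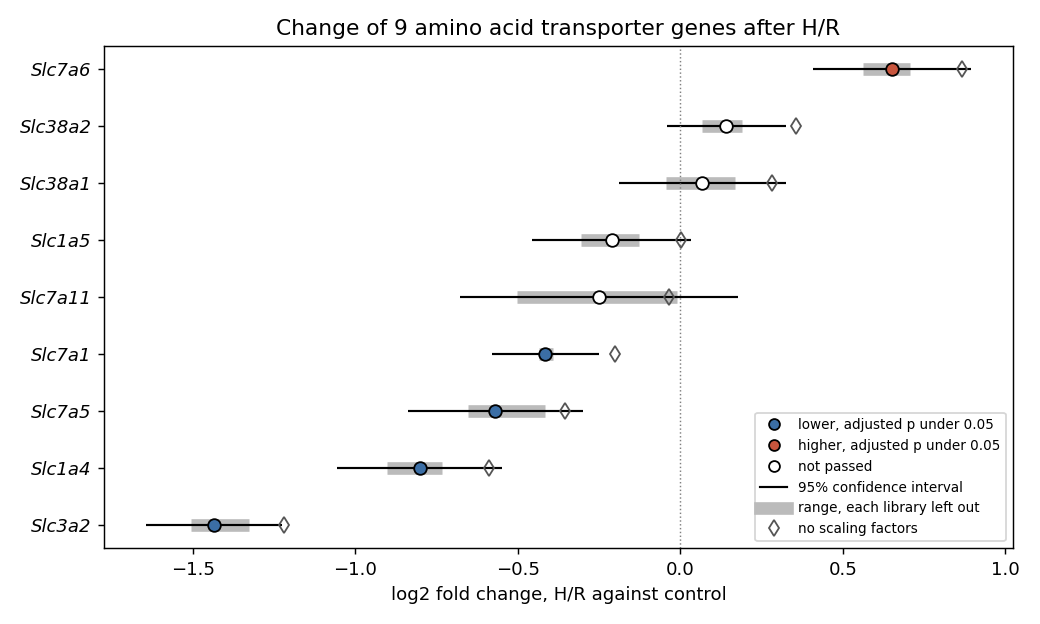
Log2 fold change of H/R against control for 9 transporter genes, with 95% confidence intervals (lines), the range over the 6 analyses that leave out 1 library (grey bars) and the value without scaling factors (diamonds); Slc7a3, whose interval spans -2.42 to 1.55, is left out. The diamonds all lie to the right of the points, the interval of Slc3a2 lies below those of the other 8, and the grey bar of Slc7a11 reaches from -0.50 to -0.01.

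The order of the transporters by level changed at its top. Per kb of exon, the scale on which genes of different length can be compared, Slc3a2 led in the controls at 216 ± 28.4 CPM per kb, ahead of Slc7a5 at 138 ± 24.5 and Slc38a2 at 118 ± 10.99, whose libraries overlapped. After H/R, Slc38a2 led at 130 ± 2.77 CPM per kb, followed by Slc7a5 at 93.4 ± 11.7 and Slc3a2 at 80.0 ± 2.47, whose libraries overlapped each other. Slc7a1 came next in both groups, at 42.1 and 31.6 CPM per kb. Below it, Slc1a5 at 31.2, Slc1a4 at 21.1 and Slc7a6 at 16.1 CPM per kb were each separated from the next in the controls, while Slc38a1 at 12.4 and Slc7a11 at 11.2 CPM per kb overlapped. After H/R Slc7a6 at 25.3 overlapped Slc1a5 at 26.9 CPM per kb, and Slc1a4 at 12.1 overlapped Slc38a1 at 13.0 CPM per kb, with Slc7a11 at 9.43 and Slc7a3 at 0.202 CPM per kb last. The exon length is that of all annotated exons of a gene, which need not all be used in C17.2 cells.

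Summed over the 10 genes, transporter RNA was 3351, 3369 and 3670 CPM in the controls and 2734, 2806 and 2786 CPM after H/R. All H/R libraries were below all controls, with a log2 difference of -0.32 (exact permutation p = 0.1, the smallest possible). The difference was -0.10 without scaling factors and -0.57 without Slc38a2, which alone made up the largest share of the sum.

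Promoter sequences were available for 6 of the 10 genes from RefSeq (GRCm38.p6, the mm10 assembly), in 8 windows from 250 bases before to 50 bases after a transcription start. Slc7a3, Slc7a5, Slc38a1 and Slc1a5 were not among them. The windows were searched on both strands for TGATGNAA, the C/EBP-ATF response element (CARE) through which ATF4 acts with C/EBP partners. It was found in 3.97% of 32851 promoter windows of the table and in those of Slc7a11 and Slc1a4. The stretches around these matches are shown with their matches in capitals, because they are the 2 transporter promoters that carry these letters. Both are written 5′ to 3′ on the strand of the gene.
Slc7a11, chr3:50443623-50443709, minus strand: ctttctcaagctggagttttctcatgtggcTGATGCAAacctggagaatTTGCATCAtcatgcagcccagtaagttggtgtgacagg
Slc1a4, chr11:20332710-20332747, minus strand: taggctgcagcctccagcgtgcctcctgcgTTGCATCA

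In Slc7a11 the first match reads forward at positions -66 to -59 from the start and the second reads on the opposite strand at -47 to -40, so the pair faces each other across a short gap. The match of Slc1a4 reads on the opposite strand and covers the start site, from position -4 to 4. Slc1a4 fell and Slc7a11 did not pass the test. The 1 window of Slc3a2 lies at a start inside the gene, downstream of the 5′ end given above, so the promoter at that end of Slc3a2 was not searched. The antioxidant response element TGACNNNGC, which NRF2 reads, was in 12.4% of all windows and in those of Slc7a1, Slc7a6 and Slc38a2, and the hypoxia response element ACGTG was in 19.6% of all windows and in those of Slc7a6 and Slc3a2. In Slc7a6, whose 2 windows overlap, the forward TGACNNNGC match contains an ACGTG, and another ACGTG lies apart from it at positions -250 to -246 of 1 window. The E-box CACGTG, bound by MYC and TFEB and itself holding ACGTG, was in 7.15% of all windows and in none of the 8. These are matches of letters only, and other parts of the genes were not searched.

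The genes whose pattern over the 6 libraries was most like that of a transporter were taken by the smallest mean absolute difference of log2 CPM, each gene centred on its own mean. Nearest to Slc3a2 was Myc, the growth-promoting transcription factor, with a mean difference of 0.0539 and levels of 35.2, 40.5 and 44.5 CPM in the controls and 15.5, 14.9 and 14.3 CPM after H/R. Next came Hk2, the hexokinase that starts glycolysis (0.0652), and Slc6a9, a glycine transporter (0.0657). Nearest to Slc7a5 were Arhgef25 (0.0222), Mcc (0.0344) and Luc7l (0.0482), with log2 fold changes of -0.59, -0.52 and -0.58. Nearest to Slc7a11 were 0610031J06Rik (0.0550), Zfp442 (0.0712) and Hspa4l (0.0738), a chaperone of the Hsp110 family that stood at 175, 324 and 472 CPM in the controls and 248, 242 and 291 CPM after H/R. As with Slc7a11, the lowest of the 6 Hspa4l values was in control replicate 1, a likeness that follows from how the gene was picked.

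Of 48 other amino acid transporters listed by family and function, 31 were in the table and 18 were tested. Of these 4 rose and 5 fell, against 18.8% and 19.0% of all tested genes, 9 did not pass, and the median log2 fold change was 0.05. Slc43a2 (LAT4), a facilitative carrier of branched-chain amino acids and phenylalanine, rose from 17.0 ± 2.11 to 52.0 ± 4.24 CPM, a log2 fold change of 1.62 (edgeR adjusted p = 3.58e-06). The cationic carrier Slc7a2, a relative of Slc7a1, rose from 45.9 ± 11.5 to 71.8 ± 4.97 CPM (log2 fold change 0.64, adjusted p = 0.00672). Slc16a10, a carrier of aromatic amino acids, and Slc6a6, the taurine transporter, rose by log2 fold changes of 0.69 and 0.36 with adjusted p of 0.0226 and 0.0257. Without H/R replicate 1 the number that rose was 2 in place of 4, since Slc16a10 and Slc6a6 no longer passed. Slc6a6 also lost its call without H/R replicate 2, and Slc16a10 without H/R replicate 3. The glycine transporter Slc6a9 fell from 249 ± 9.96 to 96.9 ± 0.797 CPM (log2 fold change -1.36, adjusted p = 1.83e-07), and 3 relatives of Slc38a1 and Slc38a2 fell with it, Slc38a10, Slc38a7 and the lysosomal arginine sensor Slc38a9, by log2 fold changes of -0.75, -0.99 and -0.62. Slc36a4, a carrier of proline and tryptophan, had a log2 fold change of -0.52 with an adjusted p of 0.0268. Its call was lost without control replicate 2 or without any 1 H/R library, with an adjusted p of at most 0.158. It was also lost without scaling factors, at an adjusted p of 0.163.

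**Figure D4:**
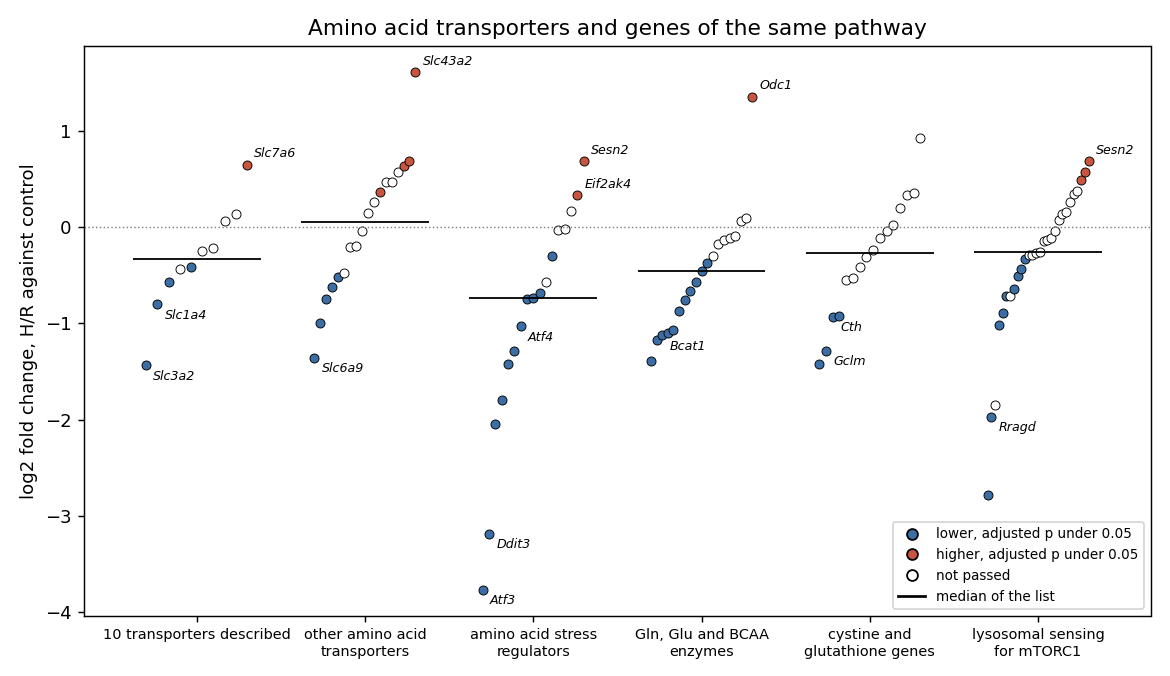
Log2 fold change of H/R against control for the tested genes of the 10 transporters and of 5 lists of related genes, ordered by value within each list; filled points passed the adjusted p of 0.05 (blue lower, red higher) and horizontal lines are list medians. The median is -0.33 for the transporters, 0.05 for other amino acid transporters and -0.73 for the stress regulators, whose lowest points are Ddit3 and Atf3.

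Most genes of a list of eIF2alpha kinases and amino acid stress regulators fell. Of 18 named, 17 were tested. Among those tested, 2 rose and 11 fell, against 18.8% and 19.0% of all tested genes. The other 4 did not pass, and the median log2 fold change was -0.73. Atf4 itself stood at 745, 663 and 695 CPM in the controls and 348, 344 and 337 CPM after H/R (log2 fold change -1.03, edgeR adjusted p = 9.67e-07). Like Slc3a2, Atf4 was nearly equal in the 3 H/R libraries and well below every control. Ddit3 (CHOP), a pro-apoptotic factor downstream of ATF4, fell from 542 ± 169 to 59.4 ± 5.31 CPM (log2 fold change -3.19, adjusted p = 1.22e-07), Nupr1, a small stress-induced chromatin protein, by -1.80 and Trib3, an ATF4-induced pseudokinase that inhibits AKT, by -1.28. Sesn2, the leucine sensor that restrains mTORC1, rose from 66.6 ± 6.81 to 107 ± 9.25 CPM (log2 fold change 0.69, adjusted p = 3.53e-04). Eif2ak4 (GCN2), the kinase that senses uncharged tRNA, had a log2 fold change of 0.33 with an adjusted p of 0.0282 that did not hold without control replicate 2 or without any 1 H/R library, which left 1 gene risen. These values are of RNA, and ATF4 is controlled mainly at translation.

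The enzymes that handle the cargo of the transporters, for glutamine, glutamate, branched-chain amino acids, arginine and proline, were tested in 19 of 21 cases. Of these 11 fell and 1 rose, against 19.0% and 18.8% of all tested genes, and 7 did not pass, with a median log2 fold change of -0.45. Bcat1, which transaminates the leucine that Slc7a5 imports, fell from 208 ± 9.85 to 95.2 ± 2.31 CPM (log2 fold change -1.13, edgeR adjusted p = 1.16e-06). Aldh18a1, the first enzyme of proline synthesis from glutamate, and Oat, the ornithine aminotransferase, fell by log2 fold changes of -1.39 and -1.10. Odc1, which turns ornithine into putrescine for polyamines, was the 1 gene that rose, from 159 ± 19.9 to 407 ± 33.1 CPM (log2 fold change 1.36, adjusted p = 1.03e-06).

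Among 16 genes of cystine and glutathione metabolism, the partners of Slc7a11, 4 fell, 0 rose and 12 did not pass the edgeR test. Over all tested genes 19.0% fell, 18.8% rose and 37.8% changed in either direction, so calls were no more frequent in this list. At an unadjusted p under 0.05, 1 was higher and 6 were lower, and DESeq2 and the exact test of edgeR called 0 higher. Cth, which makes cysteine from cystathionine, fell from 105 ± 5.03 to 55.1 ± 5.14 CPM (log2 fold change -0.93, adjusted p = 2.18e-05). Chac1, a glutathione-degrading enzyme induced by ATF4, fell by -1.42 and Gclm, the modifier subunit of the enzyme that starts glutathione synthesis, by -1.29. Gclm stood at 154, 256 and 353 CPM in the controls, lowest in replicate 1 as Slc7a11 was, and at 90.0, 108 and 115 CPM after H/R. The transcription factor Nfe2l2 (NRF2), a known activator of Slc7a11, showed a log2 fold change of -0.11 with an adjusted p of 0.540. Without control replicate 1, 7 of the 16 were lower in place of 4, and without control replicate 3, 1 was higher.

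The lysosomal machinery by which amino acids signal to mTORC1 was taken next. Its share of genes called in either direction was near that of all tested genes (37.8%). Of 28 tested genes of 32 named, 9 fell and 3 rose, against 19.0% and 18.8% of all tested genes. The other 16 did not pass, and the median log2 fold change was -0.26. Fnip1, a partner of folliculin, and Rragd, a Rag GTPase, fell by log2 fold changes of -0.89 and -1.97 with adjusted p of 6.94e-04 and 7.63e-04, and Wdr59 of the GATOR2 complex by -0.64. Depdc5 of the inhibitory GATOR1 complex rose from 50.5 ± 3.37 to 75.1 ± 1.07 CPM (log2 fold change 0.57, edgeR adjusted p = 9.27e-04), as did Sesn2 and Gatsl2 of the CASTOR family (0.49, adjusted p = 0.0133, over 0.05 without H/R replicate 1 or 2). Without H/R replicate 1 the number that fell was 4 in place of 9, and without scaling factors 6 rose and 5 fell.

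Other readouts of the transporter loci were sparse. The lncRNA table ties 11 transcripts to 5 of the 10 genes, and 9 of them overlap exons of the transporter on the same strand, so that their reads may come from the coding transcripts. Of the 5 tested, 0 passed an adjusted p of 0.05 in edgeR, against 4.93% of 6779 lncRNAs, 0 had an unadjusted p under 0.05, and 0 passed by DESeq2 or by the exact test. The 2 whose groups did not overlap both lie at Slc1a5 and were higher after H/R, against 13.2% of all tested lncRNAs. ENSMUST00000147814 had 19, 22 and 7 counts in the controls and 72, 43 and 59 after H/R (log2 fold change 0.89, adjusted p = 0.354), and ENSMUST00000131664 had 8, 3 and 1 and then 19, 18 and 21 counts (1.31, adjusted p = 0.4997). The third at Slc1a5, ENSMUST00000141349, had a log2 fold change of 0.75, and those at Slc7a11 and Slc7a5, ENSMUST00000142932 and ENSMUST00000183015, had -0.70 and -1.04. The other 6 had too few counts for the test, at most 20 in any library: AA066037 and 2_00004961 at Slc1a4, ENSMUST00000127401 and ENSMUST00000134407 at Slc1a5, ENSMUST00000182165 at Slc7a5 and AK033021 beside Slc38a2. The table of 2805 circRNAs held 0 with one of the 10 transporters as host gene.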

How the data were processed

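Before deposit, the authors ran cutadapt 1.9.3 for trimming, HISAT2 2.0.4 for alignment to mm10, HTSeq 0.9.1 for counting per gene and edgeR 3.16.5 for their comparison. Circular RNAs were aligned with STAR 2.5.1b. The deposited tables hold raw counts of genes, lncRNA transcripts and circRNA junction reads. 18 further columns of per-sample values and the columns of the authors' own comparison were not used. Strand setting and annotation release are not given in the sources used here. GENCODE vM21 gave coordinates and exon lengths (14495 of 14665 IDs found).

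In R 4.3.3 with edgeR 4.0.16, all 6 libraries were fitted over each whole table (filterByExpr, TMM, quasi-likelihood test, no covariate), after the scripts had been tested on simulated data. Ratios and sums used exact permutation tests. DESeq2 1.42.0 and other settings were alternatives. Deviations of same-numbered libraries correlated only weakly, at 0.0392 or less, so numbers were not used as a block in the main fit. No 2 libraries agreed within sampling noise (chi-square per degree of freedom 8.99 to 29.0).

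The 10 genes and all lists were chosen with earlier results of these data known. Named were the 10 genes, up to 5 other transporters and up to 3 genes per other list in each direction with the smallest adjusted p, Atf4, Eif2ak4 and Nfe2l2, the 3 nearest genes of Slc3a2, Slc7a5 and Slc7a11, and the lncRNAs tied to the 10 genes. Atf3, Slc7a7, Gm20388 and the markers are named outside that rule.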

Additional observations from a re-analysis of the deposited data

How the results depend on the processing

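Of 344 values under alternative settings, 309 kept their direction and their side of the threshold or stayed near the main value, 24 counts moved by more than 1.5 times, 4 calls were lost, 2 were gained and 5 values changed sign. The sign changes were those of Slc7a3 (0.25 without control replicate 1, 0.10 without H/R replicate 3, and -0.91 to 0.25 over the left-out libraries), Slc38a1 (-0.045 and -0.029 in the same settings, and -0.045 to 0.17 over the left-out libraries) and Slc1a5 (0.0035 without scaling factors), none of which passed the test. Under the stricter criterion with a fold change of at least 2, Slc7a1, Slc7a5, Slc7a6 and Slc1a4 no longer counted because their fold was under 2: 0 transporters were higher and 1 was lower. Under it the counts higher and lower were 1 and 1 for the other amino acid transporters, 0 and 7 for the stress regulators and 0 and 4 for lysosomal sensing, with 5 enzymes and 2 cystine and glutathione genes lower. Without scaling factors 2 transporters, 6 lysosomal sensing genes and 2 cystine and glutathione genes were higher and 5 lysosomal sensing genes lower. Without a filter on low counts, 1 cystine and glutathione gene was higher.

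With 1 library left out in turn, the transporters numbered 1 higher and 4 to 5 lower, the other amino acid transporters 2 to 4 higher and 4 to 6 lower, the stress regulators 1 to 2 higher and 10 to 11 lower, lysosomal sensing genes 2 to 3 higher and 4 to 10 lower, enzymes 1 higher and 9 to 12 lower, and cystine and glutathione genes 0 to 1 higher and 4 to 7 lower. The log2 ratio of Slc3a2 to its light chains ran from -1.22 to -0.91, and the summed level of the 10 genes from -0.34 to -0.28. Except where a count is set by construction (a 2-fold threshold, fewer libraries), the cause was not tested.

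With the replicate number as a block, 4037 genes were called in place of 4196, 1 cystine and glutathione gene was higher in place of 0, and no other of these counts moved by more than 1.5 times. Deviations of same-numbered libraries correlated at 0.0392, 0.00417 and 0.0219, and those of other numbers at -0.0314 to 0.00772. Each control library correlated best with the H/R library of its own number, while H/R replicate 2 correlated best with control replicate 3. The values are all close to 0, so any pairing by number is at most weak. Slc7a3 dropped below the filter without H/R replicate 2 and when H/R counts were thinned to the depth of the controls, and has no value there. Depth limits Slc7a3, Slc7a7 and the lncRNAs most, where counts per library are few, and the control libraries hold about 1 read for every 2 of the H/R libraries. Counting error is the lower bound of the error, since PCR copies are not independent molecules.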

Other observations

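The table tested 174 genes whose symbol is made of Slc, a family number, a letter and a number, as in Slc7a5. Among them 41 rose and 32 fell after H/R (edgeR quasi-likelihood test), with a median log2 fold change of 0.13. Over all tested genes 18.8% rose and 19.0% fell, and neither these counts nor those of the families below were tested against those shares. Leaving out the 10 amino acid transporters left 164, of which 40 rose and 28 fell, with a median of 0.15. Among the larger families, chosen after the values had been seen, the mitochondrial carriers of Slc25 split evenly, with 8 higher and 8 lower of 38 tested. The nucleotide sugar and related carriers of Slc35 had 5 higher and 1 lower of 20, and the zinc transporters of Slc39 had 3 higher and 1 lower of 8.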
